A study of Rattus norvegicus with 6 samples.

Results

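Collagen chain genes were examined in cultured neonatal rat ventricular cardiomyocytes given perhexiline or vehicle. They were taken as the protein-coding rows of the deposited expression table whose symbol is Col, a type number, the letter a and a chain number, which gave 43 of 34257 genes. The culture is of ventricular heart muscle cells isolated from newborn rats, and its poly(A) RNA was sequenced in 6 libraries. In 3 libraries the cells had received perhexiline at 1 µM for 24 h, and in the other 3 they had received vehicle. Strain and vehicle are left unnamed by the labels. Perhexiline is used against angina and blocks carnitine palmitoyltransferase, on which mitochondrial uptake of long-chain fatty acids depends. Nothing says whether the replicates were separate cultures, so each p-value reflects the spread among these samples alone, and that spread may be technical.

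Collagens are secreted proteins in which chains with a repeated glycine wind around each other into a rope-like helix, and most types need chains from several genes. In the heart the fibrillar types I and III form the interstitial network, type V sits inside their fibrils, and FACIT collagens coat fibril surfaces. Type IV is the scaffold of basement membranes around muscle cells and vessels, and type VI forms beaded filaments next to it. Types VIII and X form open networks, type X in hypertrophic cartilage. Cardiac fibroblasts and other stromal cells are the main known source of the fibrillar types, while muscle cells and endothelial cells lie on type IV.

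The cardiomyocyte label held against its markers, and stromal RNA was present as well. The 10 cardiomyocyte markers were all tested and summed to 14036 to 17062 FPKM with vehicle and 13168 to 15203 with perhexiline, and 4 of the 10 (Tnni3, Myh6, Actn2 and Myl2) fell, against 3.11% of all tested genes. Each of these 4 passed in 1 or 2 of the 6 fits that left out 1 library. The median log2 difference (perhexiline minus vehicle) of the 10 markers was -0.32, against 0.01 for all tested genes, and 9 were below 0. At an unadjusted limma p under 0.05, 7 of the 10 were lower, against 12.3% of all tested genes. FPKM is the number of fragments per kilobase of gene, scaled to the size of the library. The deposited values were not scaled to equal fragment totals. FPKM times length summed to 1.035, 1.024 and 1.000 times the 6-library mean with vehicle. With perhexiline the sums were 0.986, 0.972 and 0.984 times that mean. All 10 fibroblast markers were tested as well. Vehicle replicate 3 stood apart from the other vehicle libraries, with the lowest summed cardiomyocyte, activated fibroblast, type IV and multiplexin values of its group and the highest summed fibroblast markers. Fragments recovered from the FPKM values numbered 13616252 to 16702523 per library. Collagen chains took 0.889% to 0.961% of them with vehicle and 0.861% to 0.893% with perhexiline. In bulk RNA, fewer cells of a type and less RNA per cell cannot be told apart.

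Of the 43 chains, 24 reached an FPKM of 1 in 3 or more libraries and were tested, 2 fell and none rose. These were the fibrillar chain Col3a1 and the FACIT chain Col14a1. The test was limma on log2(FPKM + 1) over all 13460 genes passing the filter, with a Benjamini-Hochberg adjusted p under 0.05. The 2 falls are 8.33% of the tested chains, against 3.11% of all tested genes called lower and 3.55% called higher. The median log2 difference (perhexiline minus vehicle) of the 24 chains was -0.19, against 0.01 for all tested genes. It was below 0 for 21 chains and above 0 for Col4a1, Col4a2 and Col18a1. With libraries scaled to equal fragment totals the chain median was -0.14, against 0.06 for all tested genes, and 20 chains were below 0. In 15 of the 24 chains (62.5%) all perhexiline libraries lay below all vehicle libraries, against 14.9% of all tested genes, and in 2 they lay above, against 17% of all tested genes. At an unadjusted p under 0.05, 16 chains were lower and 2 were higher, against 12.3% and 13.4% of all tested genes. With limma-voom on the recovered fragments 10 chains were called lower and none higher, against 6.29% of all genes called lower. Both calls were lost when vehicle replicate 1 or 2, or perhexiline replicate 2 or 3, was left out. In these fits 11 to 16 chains had an unadjusted limma p under 0.05, in either direction. The share of all genes at that level was taken for the main fit only. Without vehicle replicate 3 the number lower was 4, with Col4a3 and Col4a4 added, against 449 of all 13460 tested genes. Without perhexiline replicate 1 it was 3, with Col8a2 added, against 424 of all tested genes.

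**Figure D1:**
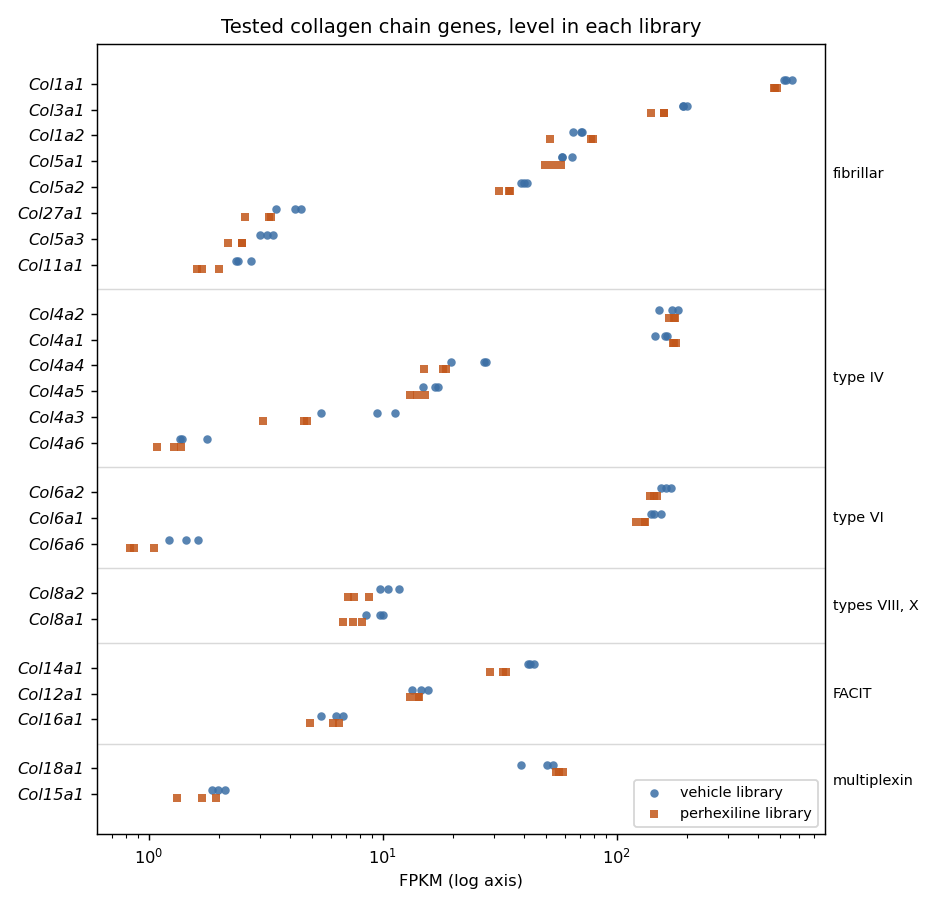
FPKM (log axis) of the 24 tested collagen chain genes in each library, by class and ordered by mean level; circles are vehicle and squares perhexiline libraries (n = 3 each). Col1a1 stands highest at 471 to 562 FPKM, and the perhexiline squares lie left of the vehicle circles for 15 chains.

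Levels per gene length spread widely between chains. Col1a1 led at a mean of 538 ± 21.8 FPKM with vehicle (mean ± SD, n = 3 per group, as throughout). Col3a1, Col4a2, Col6a2, Col4a1 and Col6a1 followed, with vehicle means of 195 ± 4.93, 169 ± 15.8, 163 ± 8.47, 157 ± 9.84 and 146 ± 8.0 FPKM. Of these 5, Col3a1 lay above the others in every vehicle library, while the vehicle ranges of neighbours among the other 4 overlapped. With perhexiline, Col4a1 and Col4a2 lay above Col3a1 in every library. Fibrillar chains made up 52.6% ± 1.21 of the summed collagen FPKM with vehicle and 50.2% ± 0.562 with perhexiline. Type IV made up 21.7% ± 1.02 and 24.4% ± 0.367, and type VI 17.9% ± 0.161 and 17.3% ± 0.30.

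Fibrillar chains had 1 fall and no rise among 8 tested, against 3.11% lower and 3.55% higher of all tested genes. The class median was -0.27. At an unadjusted limma p under 0.05, 7 of the 8 were lower, against 12.3% of all tested genes. In 7 of the 8 all perhexiline libraries lay below all vehicle libraries, against 14.9% of all tested genes. Col3a1 encodes the only chain of type III collagen, which is abundant in distensible tissue (chromosome 9, 52023295 to 52059217 in the deposited table; build not given in the sources used here). It stood at 193, 200.4 and 191 FPKM with vehicle and at 159.6, 140.1 and 159 with perhexiline. The groups did not overlap, and perhexiline replicate 2 was the lowest library. The perhexiline mean was 0.79 times the vehicle mean, which on the log2 scale is -0.35 ± 0.061 (SE, with a limma adjusted p of 0.0251). It passed in 2 of the 6 fits that left out 1 library, with adjusted p from 0.0312 to 0.0854.

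Col1a1, the major chain of type I collagen, gave 529, 562 and 521 FPKM with vehicle and 476, 471 and 482 with perhexiline. The groups did not overlap, but the gene did not pass (log2 difference -0.17, 95% interval -0.29 to -0.06; limma adjusted p = 0.0757). Its partner chain Col1a2 stood at 71.1, 65.4 and 70.7 FPKM with vehicle and 51.7, 78.9 and 77.9 with perhexiline. Here the groups overlapped, with perhexiline replicate 1 below and the other perhexiline libraries above every vehicle library. The Col1a2 difference was -0.02 (95% interval -0.37 to 0.34), and it was 0.18 without perhexiline replicate 1 and 0.04 with libraries scaled to equal fragment totals, so it has no stable sign. Type I collagen is built mainly from Col1a1 and Col1a2 chains, yet the ratio of Col1a1 to Col1a2 in FPKM was 7.8 ± 0.691 with vehicle and 7.13 ± 1.81 with perhexiline (exact permutation test, two-sided, p = 0.6, where 0.1 is the smallest p possible). A separate row described as type I alpha 2, under a placeholder symbol, held at most 0.101 FPKM.

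The type V chains, which set fibril diameter, stood lower without passing. Col5a2 gave 40.2, 41.3 and 38.9 FPKM with vehicle against 34.7, 31.6 and 35.2 with perhexiline, with no overlap (log2 difference -0.24, 95% interval -0.38 to -0.11; limma adjusted p = 0.0515). Col5a1 gave 58.5, 64.6 and 58.2 against 53.4, 49.3 and 57.9 FPKM, where the gap between the groups was narrow (limma adjusted p = 0.182). Col5a3 had means of 3.20 ± 0.200 and 2.40 ± 0.181 FPKM (limma adjusted p = 0.0979). The minor fibrillar chains Col11a1 and Col27a1, best known from cartilage, had means of 2.51 ± 0.212 against 1.77 ± 0.208 and 4.07 ± 0.505 against 3.05 ± 0.414 FPKM, and neither passed (limma adjusted p = 0.103 and 0.142). Limma-voom called Col3a1, Col5a2, Col5a3 and Col11a1 lower, against 6.29% of all tested genes. The other fibrillar chains, Col24a1, Col2a1 and Col11a2, lay between 0.0764 and 0.659 FPKM and were not tested.

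**Figure D2:**
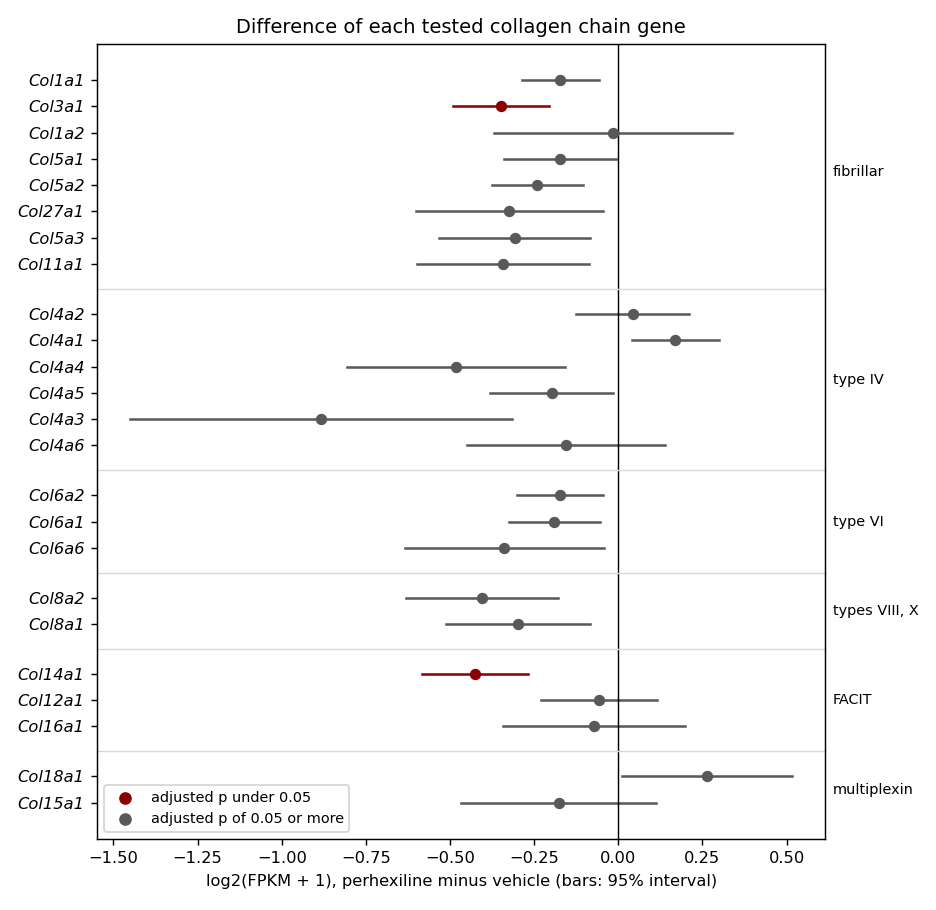
Log2(FPKM + 1) difference, perhexiline minus vehicle, of the 24 tested chains (points) with 95% intervals from limma (bars), by class. Col3a1 and Col14a1, in red, passed at an adjusted p under 0.05, and 21 of the 24 points lie below 0.

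Among FACIT chains Col14a1 fell and the other 2 tested did not pass, against 3.11% of all tested genes called lower. The class median was -0.07. Col14a1 encodes type XIV collagen, which binds fibril surfaces and the proteoglycan decorin (chromosome 7, 95074236 to 95273298). It stood at 42.7, 44.3 and 41.8 FPKM with vehicle and 33.8, 28.8 and 32.8 with perhexiline. Every perhexiline library was below every vehicle library, at 0.74 times the vehicle mean (log2 difference -0.42 ± 0.068 SE; limma adjusted p = 0.0207). It also passed in 2 of the 6 fits without 1 library, with adjusted p from 0.0234 to 0.0759. Col12a1, the related type XII chain, gave 15.6, 14.6 and 13.3 against 14.2, 13.1 and 14.3 FPKM, with overlapping groups (log2 difference -0.06, 95% interval -0.23 to 0.12). Col16a1 had means of 6.18 ± 0.651 and 5.85 ± 0.839 FPKM, and its difference of -0.07 became 0.03 without perhexiline replicate 2.

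No type IV chain passed: with limma 0 of 6 were called and 3 were lower and 1 higher at an unadjusted p under 0.05 (12.3% and 13.4% of all tested genes), and limma-voom called Col4a3 and Col4a4 lower. The class median was -0.18. Col4a1 and Col4a2 form the ubiquitous network. Col4a1 stood at 164, 161 and 145 FPKM with vehicle and 173, 179 and 176 with perhexiline, all above vehicle (log2 difference 0.17, 95% interval 0.04 to 0.30; limma adjusted p = 0.109), and it passed only with libraries scaled to equal fragment totals. Col4a2 gave 172, 183 and 152 against 178, 167 and 176 FPKM, with overlapping groups (log2 difference 0.04, 95% interval -0.13 to 0.21), and its difference was -0.03 without vehicle replicate 3. The ratio of Col4a1 to Col4a2 was 0.928 ± 0.0460 with vehicle and 1.01 ± 0.0504 with perhexiline, higher in all 3 perhexiline libraries (exact permutation test, two-sided, p = 0.1, the smallest possible).

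Col4a3 and Col4a4, which form a more restricted network best known from kidney and inner ear, had differences below 0. Col4a3 stood at 9.41, 11.3 and 5.47 FPKM with vehicle and 4.62, 3.08 and 4.76 with perhexiline. The groups did not overlap, although vehicle replicate 3 was close to the perhexiline libraries. The perhexiline mean was 0.48 times the vehicle mean, the largest relative difference among the tested chains (log2 difference -0.88, 95% interval -1.45 to -0.32; limma adjusted p = 0.0716). Col4a4 gave 27.5, 27.0 and 19.5 against 18.6, 15.0 and 18.1 FPKM, with vehicle replicate 3 again the lowest of its group (log2 difference -0.48, 95% interval -0.81 to -0.16; limma adjusted p = 0.0797). Without vehicle replicate 3 both passed, at limma adjusted p = 0.0245 for Col4a3 and 0.0255 for Col4a4. Vehicle replicate 3 also had the lowest sum of cardiomyocyte markers among the vehicle libraries; the part of this in the type IV values was not tested. Col4a5, the X-linked partner of Col4a3 and Col4a4, had means of 16.3 ± 1.23 and 14.1 ± 1.00 FPKM, and Col4a6 1.51 ± 0.238 and 1.25 ± 0.147, both with overlapping groups.

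**Figure D3:**
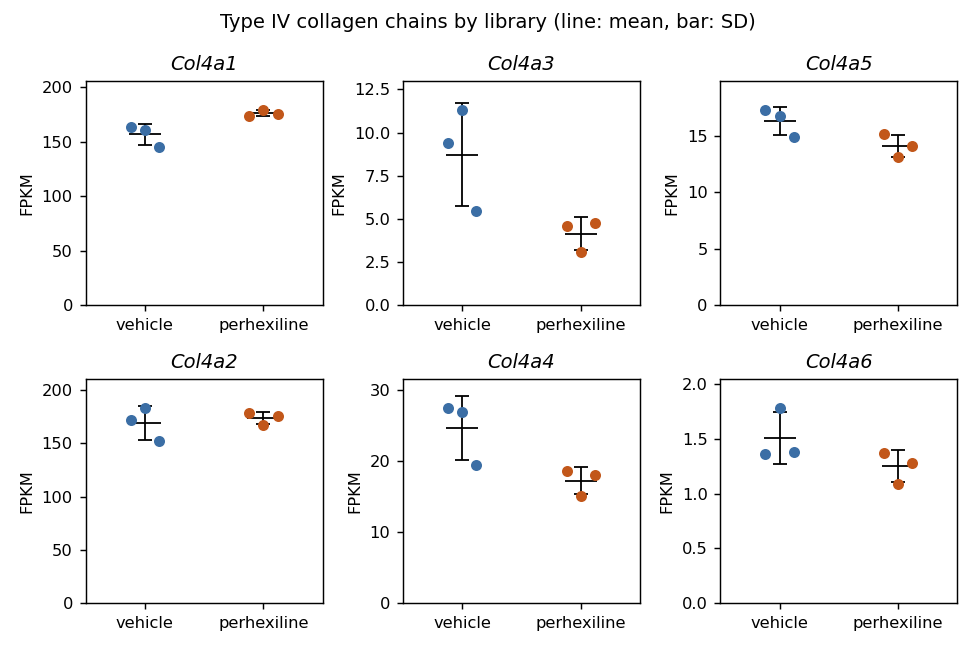
FPKM of the 6 type IV chains in each library (points; linear axis from 0), with the mean (line) and SD (bar) of 3 vehicle and 3 perhexiline libraries. Col4a1 lies higher and Col4a3 and Col4a4 lie lower in all perhexiline libraries, and the lowest vehicle point of Col4a3, 5.47, is vehicle replicate 3.

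The type IV genes lie in head-to-head pairs that are transcribed away from a common stretch. The sequence between the start sites is shown for Col4a2 and Col4a1, and the sequence upstream of Col4a3 for the pair of Col4a4 and Col4a3. Any link between promoter sequence and the expression differences was not tested. RefSeq promoter sequence (build GRCr8, matched by symbol) was found for 34 of the 43 chains. The start sites of Col4a2 and Col4a1 are 76 bases apart there (chr16:84885521-84885596, read on the plus strand, 5′ to 3′ towards Col4a1). Those of Col4a4 and Col4a3 are 412 bases apart, and the 250 bases before the Col4a3 start site are printed (chr9:91323740-91323989, plus strand). Capitals mark matches on either strand to the motifs searched, which were the GC box GGGCGG, the CCAAT box CCAAT and the TATA box TATAAA.
Col4a2 to Col4a1: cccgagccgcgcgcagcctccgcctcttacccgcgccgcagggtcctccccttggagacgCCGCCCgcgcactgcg
Upstream of Col4a3: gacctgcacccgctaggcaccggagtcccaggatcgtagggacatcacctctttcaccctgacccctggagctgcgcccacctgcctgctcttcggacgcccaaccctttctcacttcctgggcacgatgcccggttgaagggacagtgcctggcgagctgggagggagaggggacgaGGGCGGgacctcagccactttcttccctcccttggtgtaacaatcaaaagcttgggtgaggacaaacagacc
Each stretch held 1 GC box and neither of the other motifs, but the stretches differ in length. In the 250 bases before the start site, Col4a1 and Col4a2 each had 1 CCAAT box, and Col4a3, Col4a4, Col4a5 and Col4a6 had 0. Col8a1, Col8a2 and Col5a2 also had 0, and Col1a2 had 1. A CCAAT box was in 34.0% of all 250-base windows and in 11 of the 34 collagen windows. A GC box was in 18.1% of all 76-base windows and 30.5% of all 250-base windows before RefSeq start sites, and in 19 of the 34 collagen windows of 250 bases. The Col4a2 to Col4a1 stretch was 78.9% G or C, and that upstream of Col4a3 62.0%. The 250-base windows of Col4a1 and Col4a2 were 75.2% and 74.4%. In the deposited table's own annotation the Col4a4 and Col4a3 rows start 373 bases apart and the Col4a2 and Col4a1 rows 83600, so the gene models behind the FPKM values differ there from RefSeq.

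In types VI and VIII limma called no chain, and in all 5 tested chains the groups did not overlap, against 14.9% of all tested genes with all perhexiline libraries below. Col6a2 and Col6a1, chains of the same beaded filament, gave 163, 171 and 154 against 144, 139 and 149 FPKM, and 145, 155 and 139.7 against 131, 121 and 133 FPKM. All perhexiline values were below the vehicle values for both, yet neither passed (limma adjusted p = 0.0987 and 0.0940). The ratio was 0.90 ± 0.0108 and 0.890 ± 0.0189 (Col6a1 to Col6a2). Col6a6 had means of 1.43 ± 0.201 and 0.919 ± 0.119 FPKM (limma adjusted p = 0.149), and it passed the filter with 1 perhexiline library above 1 FPKM. With limma 0 of 3 type VI chains were called and 3 were lower at an unadjusted p under 0.05 (12.3% of all tested genes), and limma-voom called Col6a6 lower. The third chain of the main type VI filament, alpha 3, appears as a non-coding row with a placeholder symbol, outside the members, at 3.20 to 3.67 FPKM with vehicle and 2.16 to 3.07 with perhexiline.

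The type VIII chains, known from vessel walls and corneal membranes, stood lower in every perhexiline library. Col8a2 gave 9.72, 10.5 and 11.7 against 8.73, 7.10 and 7.57 FPKM (log2 difference -0.40, 95% interval -0.63 to -0.18; limma adjusted p = 0.0514). Col8a1 gave 10, 9.71 and 8.45 against 8.13, 6.77 and 7.45 FPKM (log2 difference -0.30; limma adjusted p = 0.0940). With limma 0 of these 2 were called and 2 were lower at an unadjusted p under 0.05 (12.3% of all tested genes), and limma-voom called both lower. Col10a1, the chain of hypertrophic cartilage, lay between 0.128 and 0.343 FPKM and was not tested.

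The multiplexins, whose helix is interrupted and which carry heparan or chondroitin sulfate, stood on opposite sides of 0 and neither passed. Col18a1, the precursor of endostatin, gave 50.4, 53.4 and 39.1 against 54.9, 59.2 and 56.6 FPKM. Every perhexiline value was above the vehicle values, with vehicle replicate 3 far below the other vehicle libraries (log2 difference 0.26, 95% interval 0.01 to 0.52; limma adjusted p = 0.18). Col15a1 gave 1.86, 2.12 and 1.98 against 1.69, 1.32 and 1.94 FPKM, with overlapping groups. Limma-voom called neither, and with limma Col18a1 had an unadjusted p under 0.05 (13.4% of all tested genes were higher at that level).

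The transmembrane chains, the anchoring fibril chain Col7a1 and the remaining chains were low. The 19 chains under the filter lay between 0 and 0.821 FPKM, with 0 to 105 fragments per library, and differences of such size are not resolved at this depth. Col17a1, a hemidesmosome protein, gave 0.288, 0.259 and 0.297 against 0.385, 0.493 and 0.507 FPKM, and Col13a1, found at cell junctions, gave 0.355, 0.369 and 0.430 against 0.369, 0.144 and 0.151 FPKM. Col7a1 gave 0.476, 0.749 and 0.421 against 0.630, 0.659 and 0.619 FPKM, and Col26a1 lay between 0.0830 and 0.220 FPKM. Of the untested FACIT chains, Col9a3 was lower and Col20a1 higher in all perhexiline libraries, with 9 to 19 and 16 to 46 fragments per library. Col9a2 lay between 0.366 and 0.821 FPKM with overlapping groups. The FACIT chains Col22a1 and Col19a1 reached 0.257 and 0.190 FPKM at most, the transmembrane chains Col23a1 and Col25a1 0.425 and 0.172, the type VI chains Col6a5 and Col6a4 0.0742 and 0.0201, and Col28a1 0.0424. The cartilage chains Col2a1 and Col9a1 reached 0.303 and 0.0452 FPKM at most, and no chondrocyte marker passed the filter. When the filter was dropped, limma called 0 chains, and 20 of the 24 chains that pass the filter had an unadjusted limma p under 0.05. The share of all genes at that level was not taken without the filter.

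**Figure D4:**
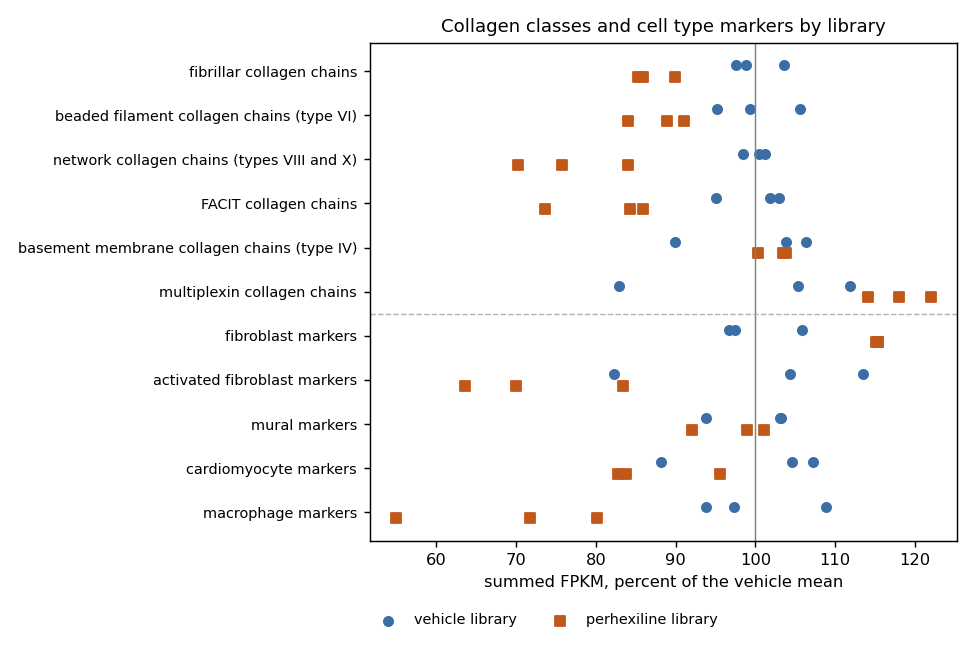
Summed FPKM of each collagen class (above the dashed line) and of cell type marker lists (below it) in each library, as a percent of the vehicle mean; circles are vehicle and squares perhexiline libraries (n = 3 each). Fibrillar chains lie at 85.3% to 89.9% with perhexiline and the fibroblast marker sum at 115%, which Dcn and Pdgfra carry while 7 of its 10 markers have differences below 0.

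The summed fibroblast markers were higher with perhexiline through Dcn and Pdgfra, while 7 of the 10 markers had a difference below 0. Fibrillar chains summed to 913 ± 28.8 FPKM with vehicle and 795 ± 22.7 with perhexiline, and the 10 fibroblast markers to 240.2 to 263 and 286 FPKM (286 in each perhexiline library). Without Dcn and Pdgfra, left out after their values were seen, the other 8 markers summed to 120.1 to 123 FPKM with vehicle and 104 to 114 with perhexiline. This choice removed the markers called higher and kept Thy1, called lower, so it favours a lower sum with perhexiline. The median log2 difference of all 10 markers was -0.14. Dcn and Lum are also in the list of fibril partners, as is the activated fibroblast marker Postn. Of these markers Dcn, the proteoglycan decorin, and Pdgfra, a growth factor receptor, rose, from 93.1 ± 8.90 to 134 ± 3.75 and from 33.2 ± 3.56 to 44.8 ± 3.57 FPKM, and Thy1, a surface glycoprotein, fell from 3.81 ± 0.223 to 2.25 ± 0.353 (limma adjusted p = 0.0138, 0.0373 and 0.0315). These are 2 rises and 1 fall among 10 tested, against 3.55% and 3.11% of all tested genes. Activated fibroblast and smooth muscle markers summed to 837 to 1154 FPKM with vehicle and 647 to 848 with perhexiline, and 0 of 6 were called by limma. At an unadjusted limma p under 0.05 there were 3, against 12.3% lower and 13.4% higher of all tested genes. Limma-voom called 2 lower, against 6.29% of all tested genes. Each marker named here as changed passed in 1 to 3 of the 6 fits without 1 library. Macrophage markers summed to 37.7 to 43.7 and 22.1 to 32.2 FPKM, and 2 of 6 tested fell (Mrc1 and C1qa), against 3.11% of all tested genes. The 8 endothelial markers found summed to 17.7 to 21.0 FPKM with vehicle and 19.2 to 20.4 with perhexiline. Kdr was the highest of them at a mean of 9.21 FPKM, and Cdh5, Emcn and Vwf stayed under 1 FPKM in all libraries. Mural, endothelial, epicardial and Schwann lists had 0 calls among 6, 5, 5 and 2 tested genes by limma, with 2, 0, 1 and 0 at an unadjusted p under 0.05, and limma-voom called 1 mural marker lower. All tested genes gave 12.3% lower and 13.4% higher at that unadjusted level, and 6.29% lower by limma-voom. The part of any of these cell types in the collagen values was not tested.

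Genes that make, fold and process collagen had no more than 1 call in each list. Of 14 tested hydroxylases and glycosyltransferases, which modify proline and lysine in new chains, 1 fell and none rose (list median 0.01): P4ha3, a prolyl hydroxylase subunit, at 8.70 ± 0.354 and 6.74 ± 0.118 FPKM (limma adjusted p = 0.035). Of 10 tested genes of procollagen folding and secretion, 0 were called by limma, 2 had an unadjusted p under 0.05 and 0 were called by limma-voom (median -0.03). The collagen chaperone Serpinh1 stood at 332 ± 21.6 and 297 ± 21.6 FPKM and the coat protein gene Sec24d at 48.6 ± 2.24 and 44.0 ± 1.72. Of 10 tested genes of propeptide processing and cross-linking, 1 rose and none fell (median -0.06): Loxl1, a lysyl oxidase active on elastic fibres, at 53.9 ± 2.38 and 65.3 ± 1.10 FPKM (limma adjusted p = 0.0261). These counts stand against 3.11% lower and 3.55% higher of all tested genes. At an unadjusted limma p under 0.05 the shares of all tested genes were 12.3% lower and 13.4% higher.

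Among 8 tested genes of collagen degradation 2 rose and 1 fell (median -0.01), against 3.55% and 3.11% of all tested genes. The gelatinase Mmp2 stood at 289 ± 24.2 and 375 ± 22.4 FPKM and the protease inhibitor Timp1 at 69.7 ± 3.71 and 93.7 ± 4.75, while Timp3, a matrix-bound inhibitor, fell from 33.2 ± 0.473 to 27.7 ± 1.73 (limma adjusted p = 0.0329, 0.016 and 0.0449). The 6 tested collagen receptors had 0 calls by limma or limma-voom and 0 at an unadjusted p under 0.05 (median -0.10). The integrin subunit Itgb1 stood at 373 ± 49.1 and 342 ± 13.5 FPKM, and the receptor kinase Ddr1 at 62.5 ± 4.63 and 57.0 ± 2.50.

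Calls among the matrix partners stand against 3.11% lower and 3.55% higher over all tested genes. Of 10 tested basement membrane partners of type IV, 1 fell (median -0.05): the laminin chain Lama4, at 42.7 ± 5.42 and 29.9 ± 3.13 FPKM (limma adjusted p = 0.0423). At an unadjusted limma p under 0.05, 7 of the 10 differed, against 12.3% lower and 13.4% higher of all tested genes. Lama2, Lama4, Lamb2 and Nid2 were lower, and Lama5, Lamb1 and Nid1 were higher. Limma-voom called 4 of the 10 lower, against 6.29% of all tested genes. Of 13 tested fibril partners 1 rose and 1 fell (median -0.04). The rise was that of Dcn, and the fall that of Eln, the elastin gene, from 75.9 ± 3.02 to 47.0 ± 10.1 FPKM (limma adjusted p = 0.034). Of 18 tested genes of TGF-beta signalling and matricellular proteins, which include known inducers of collagen genes, 1 rose and none fell (median 0.07): Skil, a repressor of SMAD proteins, at 17.3 ± 1.51 and 23.3 ± 1.89 FPKM (limma adjusted p = 0.0343). Over the 8 lists 5 genes rose and 4 fell; in each fit without vehicle replicate 1 or 2, or perhexiline replicate 2 or 3, only 1 partner gene was called. Without vehicle replicate 3 the counts were 5 and 9, and without perhexiline replicate 1 they were 5 and 2.

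**Figure D5:**
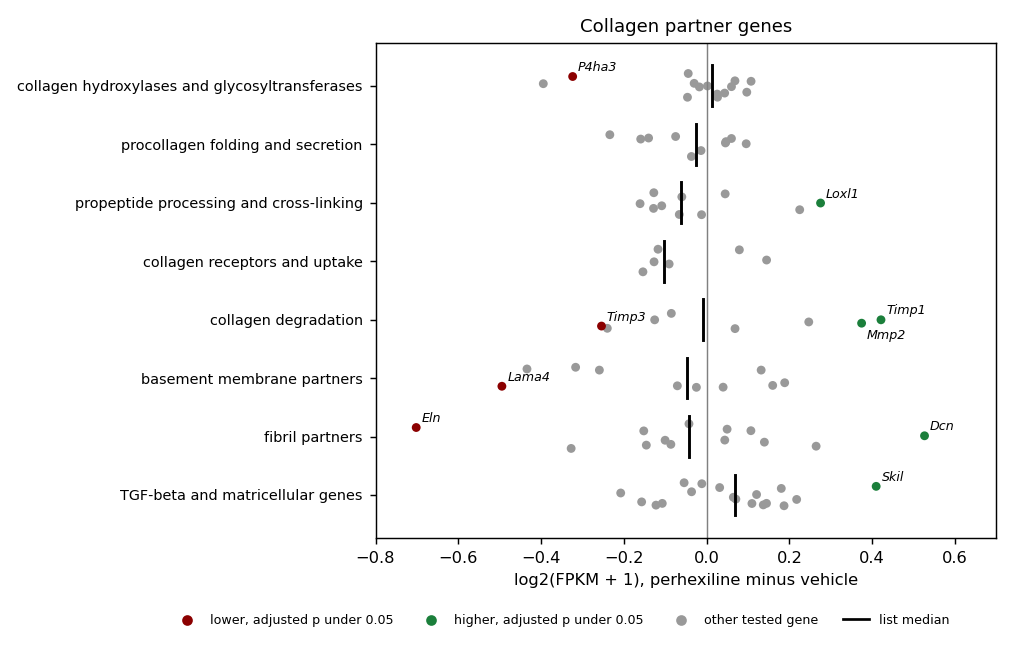
Log2(FPKM + 1) difference, perhexiline minus vehicle, of each tested gene in the 8 lists of collagen partners (points), with the list median (black line). Red and green points passed at an adjusted p under 0.05 and are named; Eln lies lowest and Dcn highest.

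The genes most like a chain over the 6 libraries were found by the distance between centred log2(FPKM + 1) profiles. For Col3a1 they were Dynlt3, Fyco1, Chrm2, Oaz2 and Svil (distance 0.0764 to 0.0897), for Col1a1 R3hdm4, Npepl1, Rph3al, Ndufb7 and Nicn1 (0.0410 to 0.0494), and for Col4a1 Prpf31, Elovl5, Slc30a7, Sec61a1 and Rab24 (0.0337 to 0.0479). None of these is in the lists of matrix genes used here.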

How the data were processed

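The authors deposited FPKM for each gene in each library, per the file headers, with gene lengths. HISAT2 2.0.5 and DESeq2 are listed, without their roles, per the submitters' processing notes; build, annotation and counting program remain not given in the sources used here. The libraries keep strand, per the labels' protocols, but how the counting used it, and how it treated reads shared by paralogs, is unknown. Libraries were grouped by their labels. FPKM times length gave whole multiples of 1 step per library for 100.0% of positive values (tolerance 0.01), taken as fragments. Genes reaching an FPKM of 1 in 3 or more libraries entered a fit of log2(FPKM + 1) by limma 3.58.1 under R 4.3.3 (mean-variance trend, two-sided, Benjamini-Hochberg), which was also tested on simulated data. This scale understates changes of low genes. The log2 differences are perhexiline minus vehicle. Ratios of 2 chains were computed from the FPKM values deposited. Alternatives were other pseudocounts, filters and scalings, limma-voom on the fragments, the replicate number as a block and each library left out. Members and lists were chosen with earlier results of these data known. Of 214 list symbols 206 were in the table. Named were all chains with a mean FPKM of at least 1, and in partner lists up to 4 called genes with the smallest adjusted p, or, with none called, the 2 of highest mean FPKM. Promoters came from RefSeq (GRCr8).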

Additional observations from a re-analysis of the deposited data

How the results depend on the processing

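Of 13460 genes, 478 were called higher and 418 lower. These counts were 99 and 63 with all genes tested, 707 and 846 by limma-voom on fragments, and 815 and 337 (70.7% higher, against 53.3%) with libraries scaled to equal fragment totals, an alternative chosen after seeing the data that moved the median of all genes from 0.01 to 0.06. With 1 library left out, 56 to 416 were higher and 30 to 449 lower. Among the collagen chains 2 were lower and 0 higher. The number lower was 0 with all genes tested (20 at an unadjusted p under 0.05, with no share of all genes taken). With a mean FPKM of at least 5 it was 5 (Col3a1, Col4a3, Col5a2, Col8a2 and Col14a1), where 523 of all genes were called lower. It was 10 with limma-voom and 0 to 4 with 1 library left out. With equal fragment totals 1 was higher (Col4a1). Of all partner genes, 5 were higher and 4 lower, against 2 and 0 with all genes tested, 7 lower with a mean FPKM of at least 5, 8 lower with limma-voom, and 0 to 5 higher and 0 to 9 lower with 1 library left out. Same-numbered libraries showed no sign of deviating together (correlations -0.10 to -0.02, against -0.05 to 0.09 for other pairs). With 3 libraries per group this cannot exclude a pairing by preparation. With the replicate block no chain was called, and 16 had an unadjusted limma p under 0.05, in either direction. The share of all genes at that level was taken for the main fit only. The block gave 101 genes higher and 72 lower, with 3 partner genes higher and 0 lower. The cause of these shifts was not tested. Of 354 refits of single chains under 15 alternatives, 6 changed sign, in 3 chains. The Col1a2 log2 difference was 0.0396 with equal fragment totals, and with 1 library left out it ranged from -0.1185 to 0.1809, above 0 in the fits lacking vehicle replicate 1 or 3 or perhexiline replicate 1. The Col4a2 log2 difference ranged from -0.0309 (vehicle replicate 3 left out) to 0.1032, and the Col16a1 log2 difference from -0.1458 to 0.0314 (perhexiline replicate 2 left out). Depth limits the 19 chains under the filter.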
